A study of Mus musculus with 6 samples.

Results

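Csf1, Tnfsf11, Tnfrsf11b, Il6, Il11 and Lif are 6 genes through which osteoblasts act on osteoclasts and on their own differentiation. They were taken by name, with earlier results of these data known, as probes whose single annotated symbol was 1 of these names, which gave 6 of the 10500 probes on the array, 1 probe for each of 6 genes among the 8841 named. The study measured total RNA from 2T3 cells, a line of mouse pre-osteoblasts grown in OptiCells, closed culture cassettes with gas-permeable walls. There were 3 static control arrays and 3 arrays of cells exposed on a Random Positioning Machine, a device that keeps turning the culture so that gravity has no fixed direction, which the labels call simulated microgravity. Genotype, treatment and culture were otherwise shared as far as the labels say, and the length of exposure and the age or passage of the cells are not stated in the labels. Each condition was modelled in 1 cell line without osteoclasts, so these data concern the osteoblast side only. In whole-culture RNA, fewer cells that make a transcript and less transcript per cell cannot be told apart.

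Osteoclasts form from myeloid precursors that need 2 signals from the osteoblast lineage. Macrophage colony-stimulating factor (Csf1) keeps the precursors alive through its receptor Csf1r, and RANK ligand (Tnfsf11) drives their differentiation through RANK (Tnfrsf11a), while osteoprotegerin (Tnfrsf11b) is a soluble decoy that binds RANK ligand and blocks it. Il6, Il11 and Lif are cytokines of the IL-6 family, which share the receptor chain gp130 (Il6st) and signal through JAK kinases and STAT3; in osteoblasts they raise RANK ligand, and Lif also regulates osteoblast differentiation. Parathyroid hormone, vitamin D and prostaglandin E are the classical inputs that raise Tnfsf11 and lower Tnfrsf11b in osteoblasts.

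No difference between the groups was detected for any of the 6 members. Of the 6 members, 0 passed an adjusted p of 0.05 (limma, Benjamini-Hochberg over all 10146 probes tested), against 0.276% of all probes tested, and 0 had an unadjusted p under 0.05, against 10.8% of all probes. The groups of each member overlapped, while they did not overlap in 15.7% of all probes. Point estimates were higher in simulated microgravity for 3 members (Csf1, Tnfrsf11b and Il11) and lower for 3 (Tnfsf11, Il6 and Lif), and the median log2 change over the members was 0.06, beside 0.05 over the 8588 genes measured. With 3 arrays a group, the 95% intervals of the full fit leave out both a 2-fold rise and a 2-fold fall for Il6 and Tnfsf11. Those of Csf1, Tnfrsf11b and Il11 leave out a 2-fold fall but hold a 2-fold rise, and that of Lif leaves out a 2-fold rise but holds a 2-fold fall. For Il11, with a static mean of 0.143 times the array median, a full 2-fold fall would lie under the floor of 0.1 set for the test. Its lower limit therefore cannot exclude such a fall. With any 1 array left out both 2-fold bounds held for Il6 (limits of -0.60 to 0.51 on the log2 scale at the widest) and the lower bound held for Csf1 (-0.88). The lower limit reached -1.01 for Tnfsf11 and -1.07 for Il11 without static 3, and -1.04 and -1.07 for Tnfrsf11b without static 2 and without microgravity 3. The upper limit of Lif reached 1.05, 1.08 and 1.09 without static 1, static 3 and microgravity 2.

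**Figure D1:**
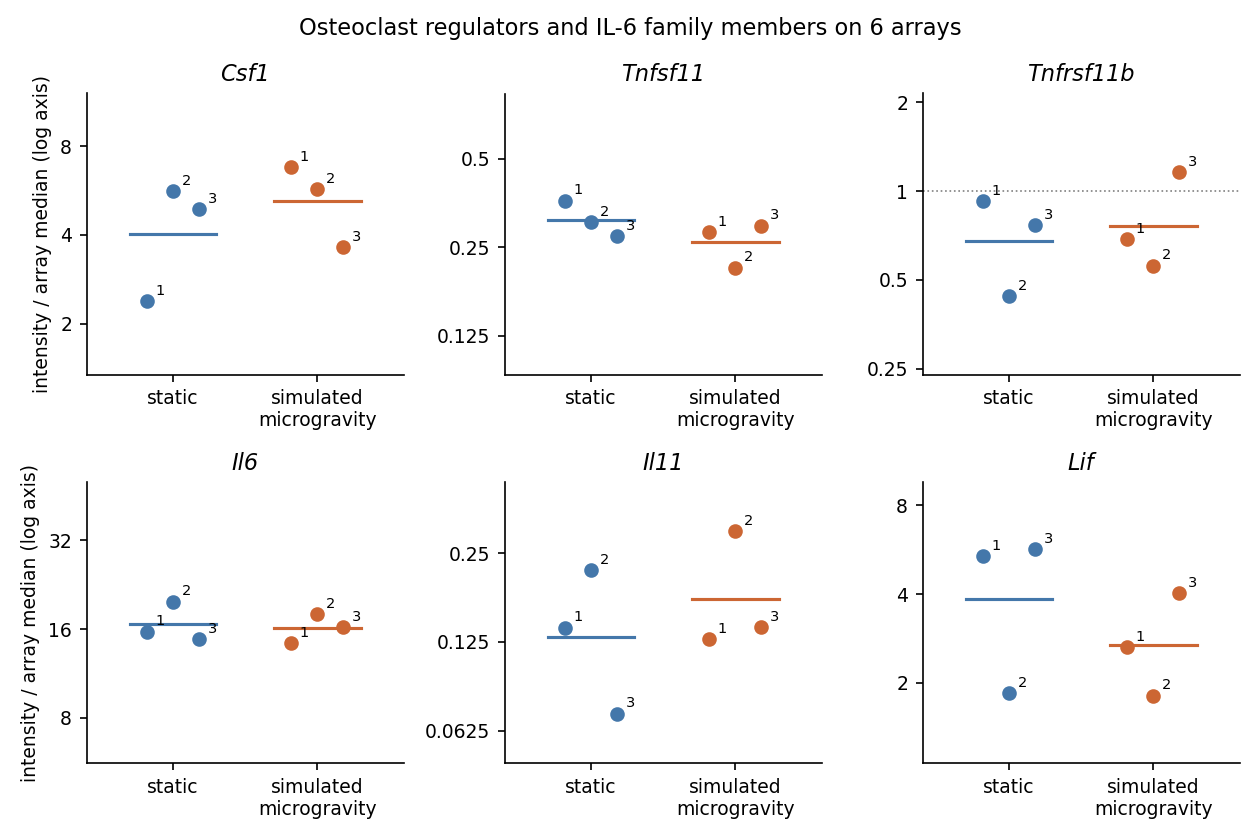
Intensity divided by the array median (log axis with base 2) for each member on the 3 static arrays (blue) and the 3 simulated microgravity arrays (orange); numbers are the replicate numbers, horizontal lines the group's geometric mean, and the dotted line the array median where it falls in the panel. Every panel spans the same number of doublings, so the tight points of Il6 and Tnfsf11 and the wide points of Lif, Csf1 and Il11 can be compared, and the 2 groups overlap in all 6 panels.

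Values below are intensities relative to the median of the same array, so that 1 is the median probe. They set a gene against itself across arrays, since probes of different genes differ in how brightly they bind. Log2 changes are simulated microgravity over static, with standard errors (SE) from the limma fit. Folds and ratios between the groups are these log2 changes turned back to a linear scale. They compare geometric means and can differ from the ratio of the arithmetic means printed.

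Tnfsf11, the membrane-bound or shed RANK ligand itself, was dim throughout. It stood at 0.360, 0.305 and 0.272 times the array median on static 1, 2 and 3 and at 0.281, 0.213 and 0.296 on microgravity 1, 2 and 3. The lowest value was on microgravity 2 and the highest on static 1, and the other values of both groups lay together between them. The log2 change was -0.25 (SE 0.22, 95% interval -0.78 to 0.28, limma adjusted p = 0.857), a fold of 0.841 with an interval of 0.581 to 1.22. All 6 values lay below the array median and 5 above the array's lower quartile, near the dim end of the array. The deposited values hold no detection call, so whether the probe rose above background is not known. Its interval and its small spread are those of the probe's intensity.

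Tnfrsf11b, the decoy receptor osteoprotegerin, lay below the array median on all arrays but microgravity 3. Its values were 0.926, 0.440 and 0.767 on static 1, 2 and 3 and 0.687, 0.559 and 1.16 on microgravity 1, 2 and 3. Static arrays alone spanned 2.10-fold and microgravity arrays 2.08-fold, which is more than the difference between groups (log2 change 0.17, SE 0.39, 95% interval -0.76 to 1.11, limma adjusted p = 0.959). Without static 2 the log2 change was -0.14 and without microgravity 3 it was -0.13, so the sign rested on single arrays.

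The balance of RANK ligand and osteoprotegerin was compared as the difference of their log2 values on each array. From static to microgravity arrays this difference shifted by -0.42, towards osteoprotegerin, with SDs of 0.52 and 0.37 within the groups (n = 3 each). The shift was smaller than the SD of the static arrays. A 2-sided exact permutation test gave p = 0.5, but 3 arrays against 3 allow no p below 0.1, so it could not have passed the threshold. The shift kept its sign in each setting for which it was computed and was -0.12 without static 2.

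Csf1, the survival factor of osteoclast precursors, was bright on all arrays, at 2.38, 5.65 and 4.88 times the median on static 1, 2 and 3 and 6.81, 5.71 and 3.63 on microgravity 1, 2 and 3. Both microgravity 1 and microgravity 2 exceeded every static array, and microgravity 3 lay between static 1 and static 3. Microgravity 2 was only just above static 2, and after quantile normalization it lay below it (5.56 against 5.72). The mean was 4.30 ± 1.71 (SD, n = 3) on static and 5.39 ± 1.62 on microgravity arrays, a fold of 1.29 (log2 change 0.37, SE 0.38, 95% interval -0.54 to 1.27, limma adjusted p = 0.861). The difference rested on static 1, and without it the log2 change was -0.01.

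Across the 6 arrays Csf1 and Tnfrsf11b ran in largely opposite orders. Csf1 was lowest on static 1 and microgravity 3, the arrays on which Tnfrsf11b was highest, and this pairing crossed the 2 conditions. Osmr, the oncostatin M receptor chain, named after its values were seen, was also lowest on those arrays, at 7.86 on static 1 and 9.54 on microgravity 3 against 13.4 to 17.95 on the other 4. Across all probes, deviations from the group mean on static 1 and microgravity 3 correlated at 0.66, over probes that are not independent replicates. The part of this shared array pattern in the values of Csf1 and Tnfrsf11b was not tested.

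Il6, an inducer of the acute-phase response and of osteoclast formation, was the steadiest member. It stood at 15.7, 19.8 and 14.8 times the median on static 1, 2 and 3 and at 14.3, 17.98 and 16.2 on microgravity 1, 2 and 3. All 6 arrays lay within a 1.39-fold range, and both groups had their highest value on array 2. The mean was 16.8 ± 2.69 (SD, n = 3) on static and 16.2 ± 1.84 on microgravity arrays, and the log2 change of -0.05 (SE 0.17, limma adjusted p = 0.977) had a 95% interval of -0.45 to 0.35. This interval holds folds of 0.733 to 1.28 and is the narrowest among the members.

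The promoter of Il6 is printed because it carries the kinds of site through which several inputs measured on these arrays are known to act, cyclic AMP signalling downstream of the parathyroid hormone receptor, C/EBP factors and NF-kappaB. The stretch is the 250 bases before the RefSeq start of Il6 (mouse GRCm38.p6, chr5:30012864-30013113, plus strand), with capitals for matches to the cyclic AMP response half-site CGTCA, the C/EBP motif TTGNGCAAT and the NF-kappaB motif GGGANTTTC, in this order.
Il6: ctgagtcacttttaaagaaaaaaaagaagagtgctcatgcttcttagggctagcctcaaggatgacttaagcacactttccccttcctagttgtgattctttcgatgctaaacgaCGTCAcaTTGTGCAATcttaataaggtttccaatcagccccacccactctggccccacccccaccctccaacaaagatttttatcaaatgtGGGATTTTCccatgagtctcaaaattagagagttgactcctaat
Both strands were searched, no 2 matches overlap, and the motifs were chosen with this promoter known. Of 32851 RefSeq promoter stretches of this length, 17.8% held CGTCA, 0.539% the C/EBP motif and 0.941% the NF-kappaB motif. Promoters of 5 members were in the table, and besides Il6 only Csf1 held one of these motifs, the NF-kappaB one. A match describes letters in this window and not a bound site.

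Il11, a cytokine that supports osteoblast formation and raises RANK ligand, was dim on all arrays. Its values were 0.140, 0.219 and 0.0713 on static 1, 2 and 3 and 0.128, 0.296 and 0.140 on microgravity 1, 2 and 3. Only static 2 and microgravity 2 rose above the lower quartile of their array, and static 3 fell under the floor of 0.1 set for the test. The log2 change was 0.26 (SE 0.41, 95% interval -0.71 to 1.24, limma adjusted p = 0.915), and it was -0.12 without microgravity 2.

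Static 2 and microgravity 2 also stood apart over the whole table: 9.16% and 6.44% of their values lay under the floor, against 17.1% to 19.8% on the other 4 arrays, and their lower quartiles were 0.197 and 0.224 against 0.158 to 0.181. Without both, the log2 change of Il11 was 0.18 (95% interval -0.37 to 0.72). Whether the raised dim end of these arrays has a part in the Il11 values was not tested.

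Lif, the leukaemia inhibitory factor, had the largest point estimate and the widest spread. Its values were 5.40, 1.85 and 5.67 on static 1, 2 and 3 and 2.65, 1.81 and 4.02 on microgravity 1, 2 and 3. Static 1 and static 3 lay above all microgravity arrays, while static 2 lay with the lowest of them, so array 2 was the lowest of each group. The mean was 4.30 ± 2.13 (SD, n = 3) on static and 2.83 ± 1.12 on microgravity arrays, a fold of 0.698 (log2 change -0.52, SE 0.50, 95% interval -1.70 to 0.66, limma adjusted p = 0.857).

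The Lif value depended on static 2 more than that of any other member did on 1 array. Without static 2 the log2 change was -1.05 (95% interval -1.89 to -0.20, limma unadjusted p = 0.0239, adjusted p = 0.408), and without static 2 and microgravity 2 together it was -0.76 (unadjusted p = 0.0310, adjusted p = 0.461). Without static 3 or microgravity 2 it was -0.24 and -0.23. Lif was lower in simulated microgravity under all 18 alternatives, past the threshold in 0 of them, with adjusted p-values of 0.408 to 0.946.

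**Figure D2:**
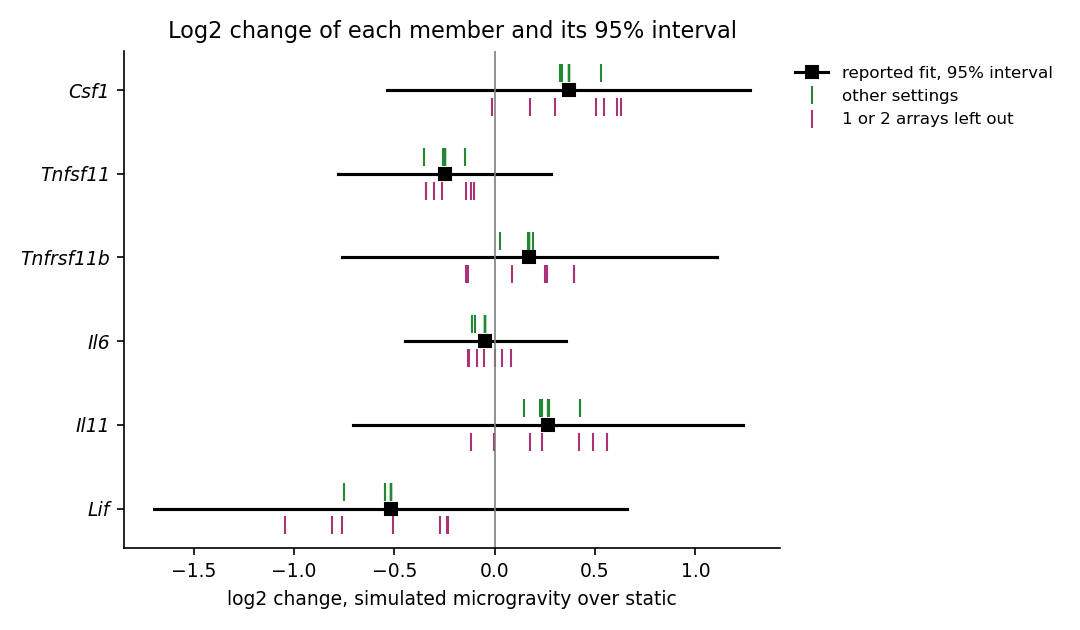
Log2 change of each member, simulated microgravity over static, as a black square with its 95% interval from the limma fit; green ticks are the values under other normalizations, floors, filters and variance models, and purple ticks those with 1 or 2 arrays left out. Every interval crosses 0, from the narrow one of Il6 (-0.45 to 0.35) to the wide one of Lif (-1.70 to 0.66), and most of the movement between settings comes from leaving out arrays.

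Il6 and Tnfsf11 varied less within groups than the other members, though Tnfsf11 was dim and whether its probe rose above background is not known. The residual SD of log2 values was 0.20 for Il6 and 0.23 for Tnfsf11, against a median of 0.29 over all probes tested. It was 0.76 for Lif, above that of 96.1% of the 1206 probes whose mean lay within 0.5 log2 of it, and 0.58 for Csf1, above 91.4% of 1118 such probes. For Il11 and Tnfrsf11b the SDs were 0.62 and 0.55, above 84.8% and 80.8% of probes of like brightness, while those of Il6 and Tnfsf11 exceeded 35.7% and 17.7%. The labels do not say whether the arrays of a group came from separate cultures, so this spread may be technical or biological.

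**Figure D3:**
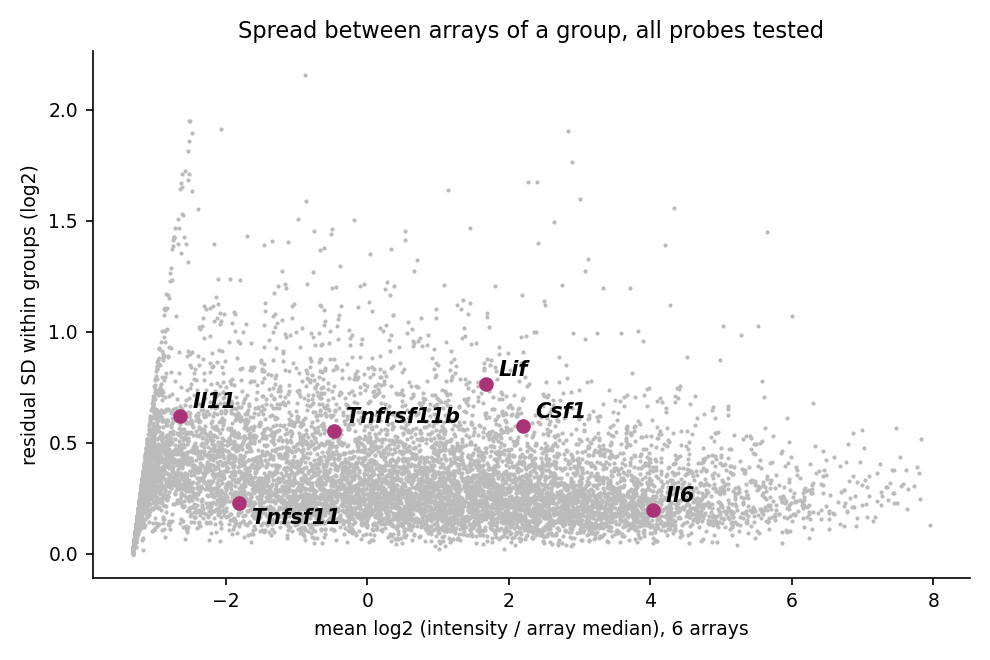
Residual SD of log2 values within groups against mean log2 intensity relative to the array median, 1 grey point for each of the 10146 probes tested, with the members in purple. Lif (0.76) and Csf1 (0.58) lie near the top of the band at their brightness, and Il6 (0.20) and Tnfsf11 (0.23) lie inside or below its middle; the slanted edge at the left is the floor.

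The genes whose log2 values followed each member most closely over the 6 arrays are given as a description. With 6 points and about 4480 candidate genes brighter than the median, high coefficients arise readily: 201 genes had a Pearson coefficient above 0.9 with Tnfrsf11b, 141 with Csf1, 64 with Lif, 46 with Il6, 33 with Il11 and 21 with Tnfsf11. The closest were Slc6a9 and Nfe2l1 for Csf1 (0.998 and 0.995), Nos2 and Med19 for Tnfrsf11b (0.997 and 0.995), Suclg1 and Gpr3 for Il6 (0.995 and 0.982), Ctps2 and L1cam for Lif (0.987 and 0.986), Arpc1a and Grb2 for Tnfsf11 (0.974 and 0.971), and Zdhhc6 and Nedd1 for Il11 (0.974 and 0.971).

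No ligand of the IL-6 family on the array passed the test. Of 6 tested, Il6, Il11 and Lif included, 0 passed and 0 had an unadjusted p under 0.05, with a median log2 change of 0.07. Cardiotrophin 1 (Ctf1), a gp130 ligand first known from heart muscle, had 2.92 ± 0.312 on static and 2.23 ± 0.264 on microgravity arrays without overlap of the groups (limma adjusted p = 0.483). Cardiotrophin-like cytokine factor 1 (Clcf1), which signals through the Cntfr complex, had a ratio of 1.62 with overlapping groups (adjusted p = 0.564).

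Among the receptors, the receptor for Lif had the largest difference, and it was lower in simulated microgravity. Lifr, the chain that joins gp130 to bind Lif, stood at 1.89, 2.38 and 2.12 on static 1, 2 and 3 and at 0.758, 0.974 and 0.632 on microgravity 1, 2 and 3. The groups lay far apart, on opposite sides of the array median, and the ratio was 0.366 (log2 change -1.45, SE 0.23, 95% interval -1.99 to -0.91). This did not pass over all probes (limma adjusted p = 0.0794). Lifr passed in 5 of the 18 alternatives: the floor at 0.05 of the median, no floor, the dimmest 25% or 50% of probes left out, and array weights. It did not pass with quantile or cyclic loess normalization, with the replicate number as a block, or with any array left out.

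The shared chain Il6st, named after its values were seen, was bright and within its spread, at 12.2 ± 3.87 on static and 10.8 ± 2.07 on microgravity arrays (log2 change -0.14, limma adjusted p = 0.937). Its dimmer second probe gave -0.02. Tnfrsf11a, the RANK receptor of osteoclast precursors, was dim in these cells at 0.240 ± 0.0335 and 0.184 ± 0.0184 (adjusted p = 0.565), and Cntfr was near the floor on most arrays, with means of 0.102 and 0.187. Of 7 receptors tested, 0 passed, 1 (Lifr) had an unadjusted p under 0.05, against 10.8% of all probes, and the median log2 change was -0.14. Csf1r and Il11ra1 had no probe with that single symbol and were not analysed here.

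Of 15 genes of JAK-STAT3 signalling tested, 0 passed and 11 had lower values in simulated microgravity, with a median log2 change of -0.31, beside 0.05 over all genes. After quantile and cyclic loess normalization the median was -0.28 and -0.29, with 12 and 11 of 15 lower. The list holds inhibitors of the pathway, and Stat5a, beside its activators, so its median does not measure STAT3 signalling. The lowest p-values belonged to Socs2, a feedback inhibitor of cytokine signalling, at 10.9 ± 0.622 on static and 7.73 ± 0.904 on microgravity arrays (limma adjusted p = 0.235), to Stat5a, a transcription factor activated by JAK kinases, at a ratio of 0.665 (adjusted p = 0.456), and to the adaptor Grb2 at 0.746 (adjusted p = 0.583). Stat3 itself, named after its values were seen, had 25.1 ± 5.94 and 24.9 ± 4.86. Its brighter probe gave a log2 change of -0.01 and its dimmer one -0.28.

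Genes known to respond to STAT3 went both ways. Of 14 tested, 0 passed, 4 had an unadjusted p under 0.05 (2 higher and 2 lower), against 10.8% of all probes, and the median log2 change was -0.05. The fibrinogen-like protein Fgl2 had a ratio of 0.540 from a dim level (0.232 ± 0.0219 to 0.125 ± 0.00997, limma adjusted p = 0.0915), Myc had a ratio of 1.505 (adjusted p = 0.191), and the vascular growth factor Vegfa 1.64 (adjusted p = 0.234). Socs3, the feedback inhibitor that gp130 signalling induces most directly, was named after its values were seen and had 0.788 ± 0.215 on static and 0.625 ± 0.118 on microgravity arrays (log2 change -0.31, SE 0.30, adjusted p = 0.857).

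Of the receptors and factors that act on Tnfsf11 and Tnfrsf11b in osteoblasts, 1 of 22 passed, against 0.276% of all probes. Pth1r, the parathyroid hormone receptor, fell from 5.77, 5.27 and 4.96 on static 1, 2 and 3 to 0.967, 1.06 and 1.15 on microgravity 1, 2 and 3. All static arrays lay well above all microgravity arrays, a 5.05-fold fall (log2 change -2.34, SE 0.16, limma adjusted p = 0.0194). Pth1r passed in 10 of the 18 alternatives. It passed in 0 of the fits with 1 array left out or with the replicate number as a block, where 0 probes of the whole table passed. The interleukin gene Il1b, an inducer of Tnfsf11, had 0.124 ± 0.0227 on static and 0.261 ± 0.0389 on microgravity arrays, below the median in both (adjusted p = 0.105). The vitamin D receptor partner Rxra had a ratio of 0.672 (adjusted p = 0.805), and the median log2 change over the list was 0.01 (-0.04 with quantile normalization). Pth1r fell in the same samples in which Tnfsf11, Tnfrsf11b and Il6, known targets of parathyroid hormone, showed no detectable difference; the labels name no hormone added to the cultures.

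Other factors that osteoblasts make and that act on osteoclasts were examined in the same fit. Of 28 tested, 0 passed over all probes by limma, while 12 had an unadjusted p under 0.05 (5 higher and 7 lower), against 10.8% of all probes. The chemokine Ccl9, which attracts osteoclasts, was at 0.657, 0.624 and 0.663 on static 1, 2 and 3 and at 0.135, 0.238 and 0.187 on microgravity 1, 2 and 3, a ratio of 0.280 with groups that did not overlap (log2 change -1.84, SE 0.26, limma adjusted p = 0.0607). It passed in 7 of the 18 alternatives. The death receptor Fas, in this list although it is a receptor and not a released factor, had a ratio of 0.501 (adjusted p = 0.109). Pleiotrophin (Ptn), a heparin-binding growth factor, had a ratio of 0.371 from 4 arrays (adjusted p = 0.116), since static 2 and microgravity 2 held no value. The list's median log2 change was -0.10.

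Of 12 genes of the NF-kappaB pathway used by RANK in osteoclast precursors and by cytokine receptors in osteoblasts, 0 passed, and the median log2 change was -0.03. The inhibitor Nfkbia, itself induced by NF-kappaB, had 24.4 ± 4.71 on static and 16.5 ± 3.14 on microgravity arrays (limma adjusted p = 0.377). Fcer1g, a signalling adaptor of myeloid cells, had 0.109 ± 0.0106 and 0.140 ± 0.00858 (adjusted p = 0.380), and Tab2 had a ratio of 1.26 (adjusted p = 0.718).

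**Figure D4:**
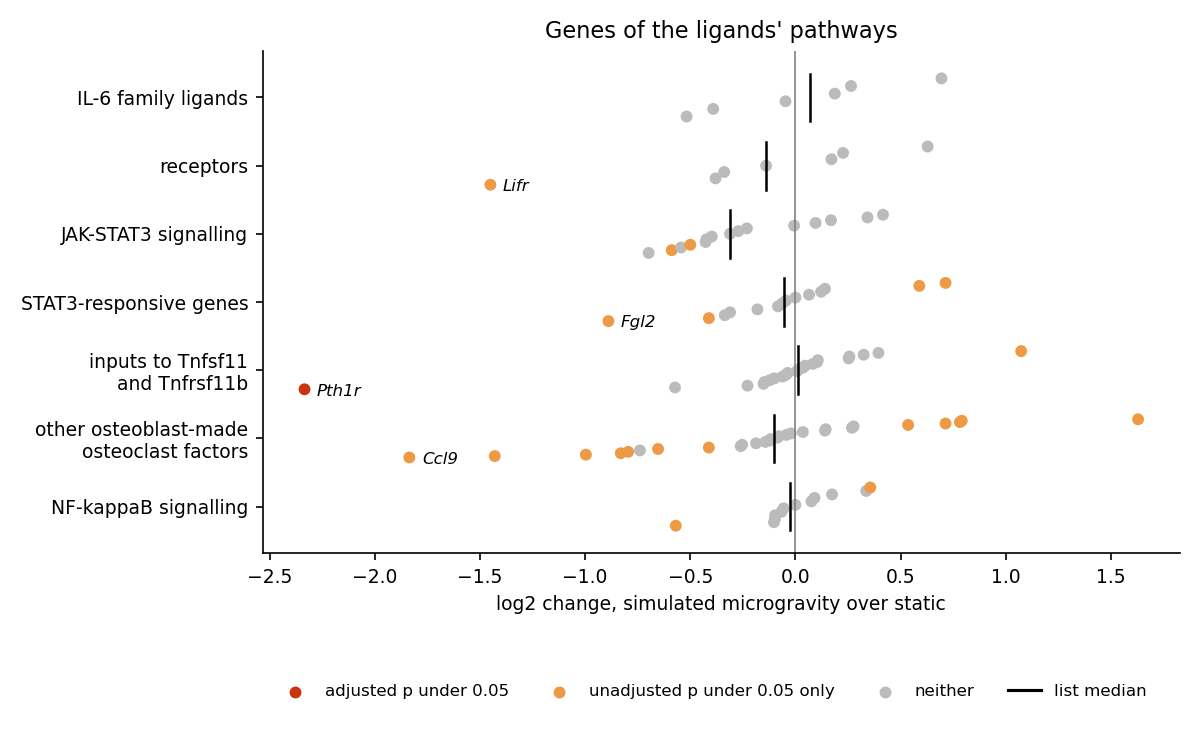
Log2 change, simulated microgravity over static, of each gene tested in the lists of ligands, receptors, signalling and osteoclast-acting factors, 1 point per gene, with the list median as a black line; colours give the limma p-value and names mark genes with an adjusted p under 0.1. Pth1r (-2.34) passes the threshold, Ccl9 (-1.84), Lifr (-1.45) and Fgl2 (-0.89) come close to it, and list medians lie between -0.31 and 0.07.

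Over these lists together, without the 6 members, 1 of 97 genes tested passed (1.03%, beside 0.276% of all probes) and 21 had an unadjusted p under 0.05 (21.6%, beside 10.8%). The lists were not independent, as genes such as Vegfa and Socs3 stand in more than 1.

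The cell type named by the labels was checked against marker lists. Of 12 osteoblast markers tested, 6 lay above the array median on all arrays and 4 below it on all, and 11 had lower values in simulated microgravity, with a median log2 change of -0.62. Omd, Pth1r and Alpl fell, which is 3 of 12 called (0.276% of all probes were), and 6 of 12 had an unadjusted p under 0.05 (10.8% of all probes did). The 3 calls were lost with any single array left out and with the replicate number as a block, where 0 probes of the whole table passed. The lineage factors Runx2 and Sp7, and also Bglap and Spp1, were not analysed here, as no probe carried their symbol alone. Osteoclast markers were mostly dim, with 5 of 7 below the median on every array. Of the 7, 4 had higher and 3 lower values in simulated microgravity, and 0 passed. Their summed level was 5.31 to 5.95 in static cells and 7.52 to 8.62 in simulated microgravity. Such a sum is weighted to bright probes, and most of this difference came from 1 gene, cathepsin K (Ctsk). Ctsk had 3.49 ± 0.634 and 5.79 ± 0.437 (limma adjusted p = 0.166). Acp5, the tartrate-resistant phosphatase of osteoclasts, had 0.154 ± 0.0126 and 0.137 ± 0.0481. Of 13 macrophage and blood cell markers 0 passed, and their summed level was 22.3 to 33.0 in static cells and 19.8 to 35.6 in simulated microgravity. Above the median on all arrays lay 4, among them the lipopolysaccharide co-receptor Cd14 at 13.1 ± 2.34 and 10.5 ± 3.39. The others, named after their values were seen, were Cd79a (6.69 ± 2.70 and 8.31 ± 3.78), Lyz2 (2.52 ± 0.463 and 2.32 ± 0.218) and Spi1 (2.20 ± 0.391 and 2.25 ± 0.359). The pan-leukocyte gene Ptprc lay under the floor on average in both groups (0.0509 and 0.0693). Median log2 changes were 0.15 for osteoclast, 0.07 for macrophage and blood cell, -0.04 for osteocyte, 0.03 for adipocyte, -0.19 for chondrocyte, -0.0016 for skeletal muscle and 0.16 for endothelial and epithelial markers, and quantile normalization turned the sign for osteocyte and adipocyte markers. The part of these markers in the members' values was not tested. Over all marker lists other than osteoblast, 0 of 53 genes passed and 2 had an unadjusted p under 0.05 by limma, beside 0.276% and 10.8% of all probes.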

How the data were processed

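The members and gene lists were chosen with earlier results of these data known. The authors deposited 1 intensity per probe and array on a linear scale for 6 arrays; how scanner values were corrected and scaled is stated in no label or header. Array medians lay within 2.07% of each other, so the deposited intensities were treated as already scaled. Each array (10337 to 10432 values) was divided by its median, values under 0.1 were set to 0.1, and log2 was taken, which understates changes of dim probes. Probes at the floor on every array or with under 2 values for either condition (354) were not tested, leaving 10146. Groups were compared with limma 3.58.1 in R 4.3.3 (lmFit, eBayes with an intensity trend, 2-sided, Benjamini-Hochberg, threshold 0.05), and the fit was tested on simulated data. The number of arrays limits the precision. P-values measure the spread between these arrays, which may be technical. Symbols came from GEO's platform annotation (8983 probes with 1 symbol, 1 with several, 1516 with none), checked through gene identifiers, and a gene's brightest probe stood for it. Named were all members, called genes of each list and otherwise the 3 with the smallest p, and for each member the 2 genes brighter than the median with the highest Pearson coefficient; others are marked. Alternatives covered floors, normalization, variance model, filters, array weights, a replicate block and arrays left out. Promoter sequences are RefSeq's.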

Additional observations from a re-analysis of the deposited data

How the results depend on the processing

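No member passed the threshold in any fit: 0 of 104 member values over 18 alternative fits had an adjusted p under 0.05 (limma), with the lowest at 0.408 and 2 of them, both of Lif, at an unadjusted p under 0.05. Il11 was not tested once the dimmest 25% were dropped, nor Il11, Tnfsf11 and Tnfrsf11b once the dimmest 50% were. Tnfsf11 and Lif kept their sign in every fit in which they were tested. With single arrays left out the log2 change ranged from -0.012 to 0.63 for Csf1, -0.14 to 0.40 for Tnfrsf11b, -0.13 to 0.080 for Il6 and -0.12 to 0.56 for Il11, so their signs turned. Without static 2 and microgravity 2 together, chosen after seeing the data, Il6 had a log2 change of 3.54e-05 (95% interval -0.45 to 0.45). Outside the members, 28 probes and 1 pathway gene (Pth1r) passed. Quantile normalization gave 54 probes and 2 pathway genes, and cyclic loess gave 56 and 2. A lower floor of 0.05 gave 53 and 3, and removing the floor gave 59 and 3. Dropping the dimmest 25% gave 59 and 3, dropping the dimmest 50% gave 54 and 2, and array weights gave 115 and 5. A floor of 0.2 gave 40 and 2, eBayes without the trend gave 19 and 1, and robust eBayes gave 29 and 1. Both counts were 0 (limma, with 761 to 968 probes at an unadjusted p under 0.05) with any single array left out, 0 in the replicate block fit (938) and 0 when static 2 and microgravity 2 were both dropped (848). Pth1r was among the pathway genes in each setting that called any, and the added ones were Ccl9, Lifr, Fas and Il1b. The cause of these shifts was not tested. The labels do not say whether the replicate numbers pair the samples. Deviations of same-numbered arrays correlated at -0.21, 0.46 and -0.18, and only the arrays numbered 2 correlated best with their own number. Static 1 correlated best with microgravity 3 (0.66) and static 3 with microgravity 1 (0.38). Deviations are taken from the group's own mean, so these coefficients depend on each other and cannot decide whether samples were paired. The reported fit treats the 6 arrays as independent. In this balanced layout a block cannot move a log2 change; unadjusted limma p-values under it were 0.0861 for Lif and 0.217 for Il11, against 0.332 and 0.539 without it, and 0 members passed. The ratio of Tnfsf11 to Tnfrsf11b was not recomputed with array weights, the block or other variance models, which leave its per-array values as they are.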
